A study of Danio rerio with 6 samples.

Results

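The 7 transcripts described here encode subunits of the respiratory chain and of ATP synthase that are made inside the mitochondrion. They were taken by identifier from the 52216 Ensembl transcripts listed for trunk neural crest cells of zebrafish. They are mt-nd1 (ENSDART00000093596.3, 975 bases), mt-nd2 (ENSDART00000093600.3, 1047 bases), mt-co1 (ENSDART00000093606.3, 1551 bases), mt-co2 (ENSDART00000093609.3, 691 bases), mt-atp8 (ENSDART00000093611.3, 165 bases), mt-atp6 (ENSDART00000093612.3, 684 bases) and mt-co3 (ENSDART00000093613.3, 786 bases). The length of each equals that of the gene of that name on the mitochondrial chromosome in a RefSeq gene table. The lengths were part of the rule that chose the 7. Each is shared by 2 to 55 listed transcripts, the member included, so the match alone does not settle the names. In that table the 7 follow each other in the order ND1, ND2, COX1, COX2, ATP8, ATP6, COX3, with no other protein-coding gene between them. The table lists 13 protein-coding genes on the mitochondrial chromosome, and the other 6 were not analysed here. All 7 are coding sequences, and no coordinates are given because the table and the files use different builds.

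The cells carried the reporters Gt(foxd3:mCherry), a gene trap at foxd3, and Tg(sox10:mEGFP), a membrane EGFP transgene driven by sox10. Double-positive cells of the trunk were collected at 72 hours post fertilization (hpf, 3 samples) and at 36 hpf (3 samples), from pieces whose anterior part had been cut away. Each sample held 1750 ± 750 cells, as the labels give it, and the only difference between the groups that the labels state is the stage. The labels do not state whether samples of the same stage are from different clutches, and p-values reflect no more than the variation among these 6 libraries, part of which may be technical. The levels of foxd3 and sox10, of other cell types' markers and of nuclear respiratory chain genes were not analysed here, because the tables used here pair no transcript with a gene.

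Mitochondria carry their own circular genome, which is transcribed as long precursors from which the tRNAs are cut out to release the mRNAs. The proteins encoded there join nuclear-encoded subunits in the complexes that pump protons and in the ATP synthase. Subunits ND1 and ND2 sit in the membrane arm of complex I (NADH dehydrogenase). COX1, COX2 and COX3 form the core of complex IV (cytochrome c oxidase). ATP6 and ATP8 belong to the membrane part of complex V (ATP synthase), and in vertebrates their overlapping reading frames lie on a shared mRNA. Neural crest is a migratory embryonic population that forms pigment cells, peripheral neurons and glia.

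Estimated counts per library ran between 7123251 and 11191844 at 72 hpf, and between 10520927 and 18322110 at 36 hpf. At least 10 counts were reached by 11511, 10548 and 18793 transcripts in replicates 1 to 3 at 72 hpf and by 15089, 21068 and 20355 at 36 hpf. A transcript of 1932 bases, not among the 7, held 7.04 to 8.02% of the counts of each 36 hpf library. Levels are given as CPM, the estimated counts scaled to a common library total, which grow with transcript length, and as the deposited TPM, for which counts are first divided by an effective length. Levels of different genes were ordered by TPM or counts per base, while counts, shares of counts and count ratios describe the libraries and are not scaled by length. Each library pools sorted cells, so a lower number of cells of a type and less RNA per cell cannot be told apart.

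Together the 7 transcripts held 0.932, 1.19 and 0.419% of the counts in replicates 1 to 3 at 72 hpf. At 36 hpf they held 0.507, 0.713 and 0.505%. Replicates 1 and 2 at 72 hpf therefore lay above all 3 libraries at 36 hpf, and replicate 3 at 72 hpf lay below all of them. The means were 0.847% ± 0.39 at 72 hpf and 0.575% ± 0.12 at 36 hpf (SD, n = 3 each). This difference of 0.27 percentage points was within the spread of the 72 hpf libraries, and the two-sided exact permutation test gave p = 0.4, where 3 samples against 3 allow no p under 0.1. Error from counting reads was small beside that spread. The Wilson 95% interval, which takes reads as independent, ran from 0.415 to 0.423% in the lowest library, replicate 3 at 72 hpf. Without replicate 3 at 72 hpf the difference was 0.49 percentage points, and without replicate 2 at 72 hpf it was 0.10, with exact permutation p of 0.2 and 0.8. The 2 libraries with the highest share were also those with the fewest transcripts at 10 counts, while at 36 hpf the library with the highest share had the most. The part of library quality or cell input in these shares was not tested.

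Those of the 10 most abundant transcripts that are not among the 7 were then taken out of the totals. The shares came to 0.950, 1.23 and 0.430% at 72 hpf, against 0.572, 0.807 and 0.570% at 36 hpf. The order of the libraries by stage was as before, and the difference was 0.22 percentage points with an exact permutation p of 0.5. Of the summed TPM, which weighs short transcripts more, the 7 held 2.61, 3.34 and 1.24% at 72 hpf and 1.41, 1.90 and 1.32% at 36 hpf. In each of the 6 libraries mt-co1 supplied 50.7 to 64.5% of the counts of the 7.

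**Figure D1:**
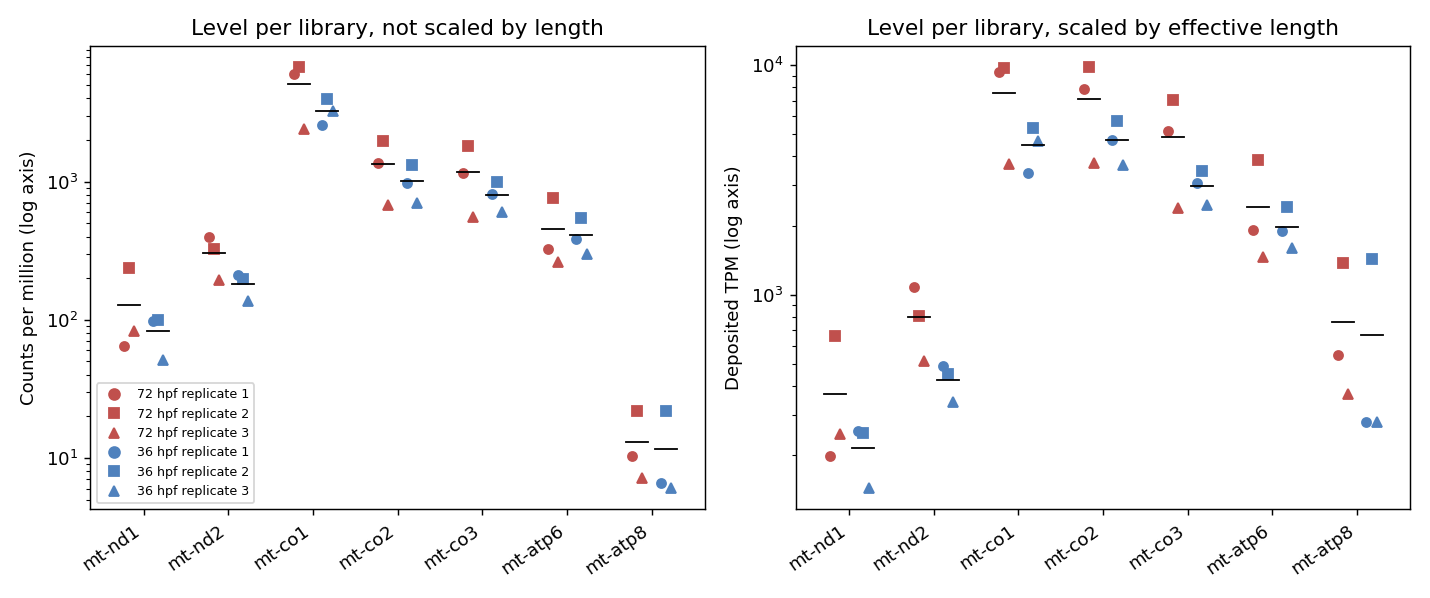
Level of each of the 7 transcripts in every library, as CPM on the left and as deposited TPM on the right, both on log axes. Points are libraries (red 72 hpf, left; blue 36 hpf, right; shapes are replicates) and black bars are means of 3. The stages overlap for every transcript in CPM, and replicate 2 at 72 hpf is the highest library for 5 of the 7.

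The catalytic subunit of complex IV, mt-co1, which carries the haem groups and a copper centre where oxygen is reduced, had the highest counts of the 7. It had 6014, 6753 and 2412 CPM at 72 hpf, against 2568, 3946 and 3248 CPM at 36 hpf. In replicate 1 at 72 hpf no transcript of the whole table had more counts. It ranked 1st, 3rd and 14th by counts at 72 hpf and 20th, 12th and 15th at 36 hpf. Its mean was 5059.7 ± 2323 CPM at 72 hpf and 3254 ± 689 CPM at 36 hpf (SD, n = 3 each). Replicate 3 at 72 hpf was the lowest of all 6 libraries, so the stages overlapped.

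The subunit that receives electrons from cytochrome c is mt-co2. Its levels were 1366, 1982 and 681 CPM at 72 hpf, against 981, 1324 and 705 CPM at 36 hpf. For mt-co3, a core subunit without metal centres, they were 1151, 1800.4 and 555 CPM at 72 hpf, against 816, 989 and 602 CPM at 36 hpf. Both repeat the picture of mt-co1, with replicates 1 and 2 at 72 hpf above all 36 hpf libraries and replicate 3 at 72 hpf below all of them. The gene length of mt-co2 leaves a remainder of 1 base after whole codons. As background, such vertebrate mitochondrial mRNAs complete their stop codon by polyadenylation.

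Complex I was represented by transcripts of much lower level. The membrane subunit mt-nd1 had 64.8, 238.4 and 83.0 CPM at 72 hpf, against 98.0, 99.9 and 50.9 CPM at 36 hpf. Only replicate 2 at 72 hpf exceeded the 36 hpf libraries, and the 72 hpf libraries differed among themselves by 3.68 times. The neighbouring gene mt-nd2, also a membrane subunit, had 395, 327 and 193 CPM at 72 hpf, against 211, 199 and 136 CPM at 36 hpf. Its replicates 1 and 2 at 72 hpf were above all 36 hpf libraries, and replicate 3 lay among them. On the TPM scale mt-nd2 had 1080.2, 811 and 516 at 72 hpf, against 487, 451 and 342 at 36 hpf. It alone of the 7 had stages that did not overlap in TPM, as was the case for 23.1% of the 17711 transcripts tested, and 0 of the 7 were without overlap in CPM, where the share of all tested transcripts was also 23.1%.

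Complex V was represented by mt-atp6, part of the proton channel, and by the small membrane subunit mt-atp8. The levels of mt-atp6 were 324, 766 and 262 CPM at 72 hpf, against 385, 550 and 300 CPM at 36 hpf. Only replicate 2 at 72 hpf was above the 36 hpf libraries, and replicates 1 and 3 at 72 hpf were each below at least 2 of the 3. For mt-atp8 the counts were low, at 88, 155 and 80 in the 72 hpf libraries and 69, 404 and 78 in the 36 hpf libraries. This gave 10.4, 21.8 and 7.15 CPM at 72 hpf, against 6.56, 22.0 and 6.03 CPM at 36 hpf. Replicate 2 was the highest library at each stage, and the stages covered nearly the same range. The exact Poisson 95% interval of the lowest level, that of replicate 3 at 36 hpf, was 4.77 to 7.53 CPM and covers counting error only.

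The length of 165 bases makes mt-atp8 shorter than the typical fragment of these libraries. The fragment length estimated from the files came to 393, 344 and 366 in replicates 1 to 3 at 72 hpf, against 373, 303 and 375 at 36 hpf (bases). The 2 libraries with the shortest fragments, replicate 2 of each stage, were those with the highest mt-atp8 CPM. They were also the 2 highest for the longer mt-atp6 and mt-nd1. Among the other 4 libraries the relation did not hold, as replicate 1 at 72 hpf had the longest fragments and more mt-atp8 than the other 3. The effective length by which TPM is divided came to 33.8, 27.7 and 35.4 bases in the 72 hpf libraries, against 36.7, 25.9 and 36.7 bases in those at 36 hpf, or 15.7 to 22.2% of the full length. For mt-co1 the effective length was 74.7 to 80.5% of the full length. The TPM of mt-atp8 was 548, 1373 and 369 at 72 hpf and 279, 1437 and 279 at 36 hpf, so the gap between replicate 2 and the others was wider than in CPM. The part of fragment length in these levels was not tested.

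**Figure D2:**
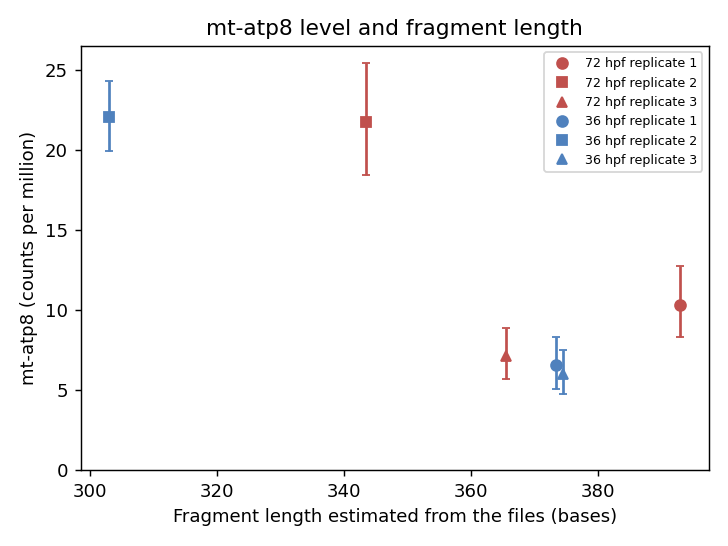
Level of mt-atp8 in CPM against the fragment length estimated from the files, in bases, for the 6 libraries (red 72 hpf, blue 36 hpf; bars are exact Poisson 95% intervals of the counts). Replicate 2 of each stage, with 344 and 303 bases, lies at 21.8 and 22.0 CPM, and the other 4 libraries lie at 6.03 to 10.4 CPM.

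The order of levels within a library was similar at both stages. In TPM, mt-co1 averaged 7591 ± 3366 at 72 hpf and 4470.0 ± 981 at 36 hpf, and mt-co2 7141 ± 3105 and 4702 ± 1006 (SD, n = 3 each). These 2 did not differ beyond their spread, as mt-co1 was the higher in 2 of 6 libraries and their ratio ran from 0.721 to 1.27. Below them came mt-co3, with 4875 ± 2353 TPM at 72 hpf and 2988 ± 495 at 36 hpf, and then mt-atp6, with 2412 ± 1277 TPM at 72 hpf and 1966 ± 410 at 36 hpf (SD, n = 3 each). In each of the 6 libraries mt-co2 was above mt-co3, by 1.39 to 1.66 times, and mt-co3 above mt-atp6, by 1.43 to 2.71 times. The lowest places were held by mt-nd2, mt-atp8 and mt-nd1. In 6 of 6 libraries mt-nd2 was above mt-nd1, by 1.23 to 5.42 times, while mt-atp8 was above mt-nd2 in 2 of 6, so these 2 could not be ordered.

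Dividing the counts by full length instead of effective length changed the order at both ends. On that scale mt-co1 was above mt-co2 in 6 of 6 libraries, by 1.17 to 2.05 times, and mt-atp8 was the lowest of the 7 in 5 of 6 libraries. The order mt-co2, mt-co3, mt-atp6, mt-nd2, mt-nd1 was the same in all 6 libraries on both scales. Which of the highest and which of the lowest transcripts lead therefore depended on how length was treated. As mt-atp8 and mt-atp6 lie on a shared mRNA in vertebrates, their places are those of estimates and not of separate mRNAs.

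By edgeR's quasi-likelihood test over all 17711 tested transcripts, 0 of the 7 differed between 72 and 36 hpf at a Benjamini-Hochberg adjusted p under 0.05, where 0.407% of all tested transcripts did. At an unadjusted p under 0.05 it was also 0 of 7, against 10.3% of all tested transcripts. DESeq2 called 0 of the 7 (8.93% of all), limma-voom 0 (5.83%) and limma on log2(TPM + 1) 0 (5.14%). At an unadjusted p under 0.05 these tools had 0, 1 and 1 of the 7, against 2660, 3471 and 3054 of the 17711 tested transcripts. The member under it was mt-co1 by limma-voom, with a log2 fold change of -0.61, and mt-nd2 by limma on TPM, with 0.86. The adjusted p of these 2 were 0.229 and 0.230.

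The fitted log2 fold changes, 72 over 36 hpf, were all above 0 with edgeR but small beside their errors. Of all tested transcripts, 48.4% were above 0 in that fit. The median of the 7 was 0.51 and that of all tested transcripts -0.07. DESeq2 and limma on TPM also put 7 of 7 above 0. Limma-voom put 4 of the 7 below 0, with a median of -0.06 for the 7 and of -1.11 over all transcripts. The sign thus differed by tool, while the median of the 7 was above that of all transcripts in each. The 7 come from the same libraries and are not independent, and fold changes of transcripts of like level were not compared. In limma-voom the weight of replicate 3 at 72 hpf for mt-co1 was 87.2% of its stage, and that of replicate 2 at 36 hpf 91.5% of its stage. The remaining weights were 8.15 and 4.62% in replicates 1 and 2 at 72 hpf, against 2.84 and 5.63% in replicates 1 and 3 at 36 hpf. Replicate 3 was the lowest for mt-co1 at 72 hpf and replicate 2 the highest at 36 hpf. The weights of these libraries were 47.7 and 50.7% for mt-atp6, which limma-voom put below 0. They were 46.3 and 46.7% for mt-nd2, which it put above 0. The part of the weights in the sign was not tested.

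Among the complex I transcripts, mt-nd2 had the largest log2 fold change of the 7, 0.72 (SE 0.55), or 1.64-fold, with a 95% interval of 0.669 to 4.03-fold and an edgeR adjusted p of 0.927. For mt-nd1 it was 0.59 (SE 0.84), or 1.5-fold, with an interval of 0.377 to 6.0-fold and an edgeR adjusted p of 0.995. In complex IV, mt-co1 had the narrowest interval of the set, 0.784 to 2.93-fold, around a log2 fold change of 0.60 (SE 0.40) with an edgeR adjusted p of 0.870. The values were 0.51 (SE 0.47) for mt-co3 and 0.39 (SE 0.45) for mt-co2, with intervals of 0.656 to 3.09-fold and 0.622 to 2.75-fold. Complex V had the smallest differences, at 0.09 (SE 0.55) for mt-atp6 and 0.14 (SE 1.26) for mt-atp8. Their intervals of 0.432 to 2.62-fold and 0.139 to 8.75-fold leave room for changes in either direction, and missing the threshold does not show that a level stayed the same.

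Leaving out 1 library moved these values, at either stage. Without replicate 3 at 72 hpf the log2 fold change of mt-co1 was 0.92 with an edgeR adjusted p of 0.126, the lowest of that gene's 15 alternatives, which ran up to 1.00. Its 95% interval there was 1.27 to 2.81-fold and its unadjusted edgeR p 0.0081. In that fit 4074 of 20115 tested transcripts had an unadjusted p under 0.05, and 0 were called after adjustment. In the fit without replicate 2 at 72 hpf, mt-nd1, mt-co2, mt-atp6 and mt-atp8 were below 0, at -0.24, -0.01, -0.55 and -0.45, and mt-co3 was at 0.05. Among the 36 hpf libraries, mt-atp8 was at 0.97 without replicate 2, at -0.21 without replicate 1 and at -0.20 without replicate 3, and mt-atp6 at -0.03 and -0.11 without replicates 1 and 3. Only mt-nd2 was above 0 in all 15 alternatives, from 0.42 to 0.94.

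**Figure D3:**
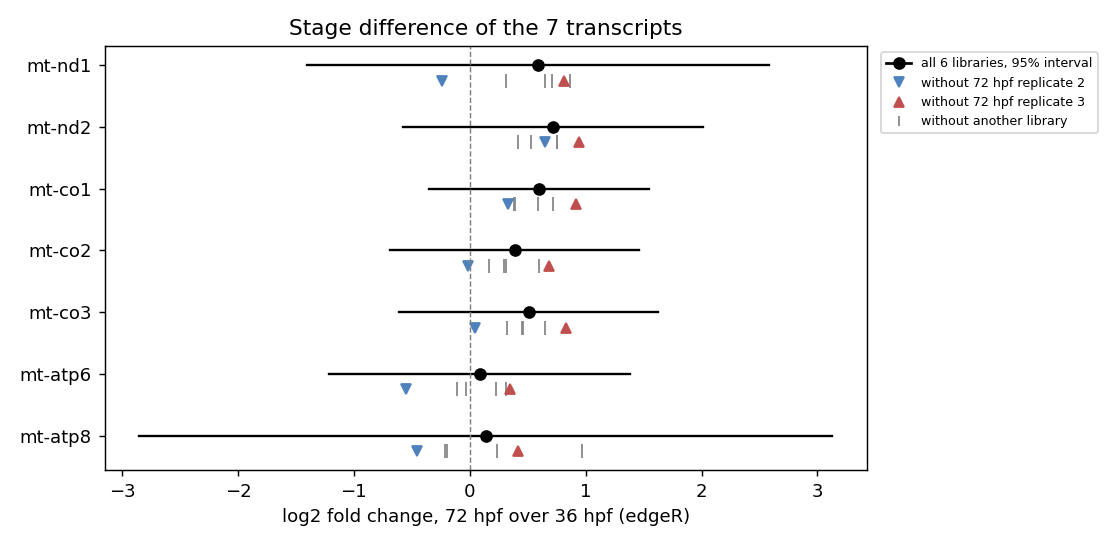
Log2 fold change, 72 hpf over 36 hpf, of each transcript from edgeR (black points, with 95% intervals), and below each the values with 1 library left out (blue, replicate 2 at 72 hpf; red, replicate 3 at 72 hpf; grey, any other library). All 7 intervals include 0, and without replicate 2 at 72 hpf 4 of the 7 lie below 0.

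Spread within a stage was close to that of well-expressed transcripts. Among 2022 transcripts with a mean of at least 100 CPM, the median SD of log2(CPM + 1) within 72 hpf was 0.89, and the 7 had a median of 0.81 (range 0.53 to 0.99). Within 36 hpf the medians were 0.46 for those transcripts and 0.44 for the 7 (range 0.31 to 0.96). Of the 7, 6 reach that mean and are themselves among the 2022, and mt-atp8 does not. The 2022 were not matched to the 7 in level.

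The composition of the set within a library does not depend on the library total, so it was compared separately. It does depend on how length was treated, as the effective length differs between libraries. The share of mt-atp8 in replicate 2 at 36 hpf was 7.55% by TPM and 1.92% by counts per base of full length. Complex IV transcripts made up 81.6% ± 3.6 of the summed TPM of the 7 at 72 hpf and 79.2% ± 3.0 at 36 hpf (SD, n = 3 each). Complex V held 13.3% ± 3.4 at 72 hpf and 16.6% ± 3.2 at 36 hpf, and complex I 5.15% ± 0.89 and 4.21% ± 0.91 (SD, n = 3 each). All 6 libraries thus had the same ranking of these sums. The sums cover 3 members of complex IV, 2 of complex V and 2 of complex I. Mitochondrial genes not analysed here are in none of them, so whole complexes are not ranked. The mean TPM of the 3 complex IV transcripts was 11.6, 12.1 and 8.59 times that of the 2 complex I transcripts at 72 hpf, against 10.1, 13.8 and 14.9 times at 36 hpf. These ratios overlapped, with a log2 difference of -0.26 and an exact permutation p of 0.4.

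Of the 7 shares in the summed TPM, mt-atp6's was without overlap between the stages. It was 7.31, 11.6 and 11.8% at 72 hpf, against 13.4, 12.7 and 12.1% at 36 hpf. The difference of -2.51 percentage points gave p = 0.1 in the exact permutation test, a floor set by the 3 samples per stage, and 0.7 after Benjamini-Hochberg adjustment over the 7 shares. Replicate 1 at 72 hpf carried most of it, and without that library it was -1.05. With counts per base of full length the stages overlapped. The mt-atp6 shares were then 5.71, 9.89 and 9.71% at 72 hpf, against 11.2, 11.6 and 9.66% at 36 hpf. On that scale the difference was -2.38 percentage points, with an exact permutation p of 0.3. The shares of mt-co2, at 30.2, 29.4 and 30.0% at 72 hpf and 33.5, 30.0 and 28.0% at 36 hpf, showed the closest values within 72 hpf of the 4 largest shares. The exact permutation p of the 6 other shares ran from 0.3 to 0.9.

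**Figure D4:**
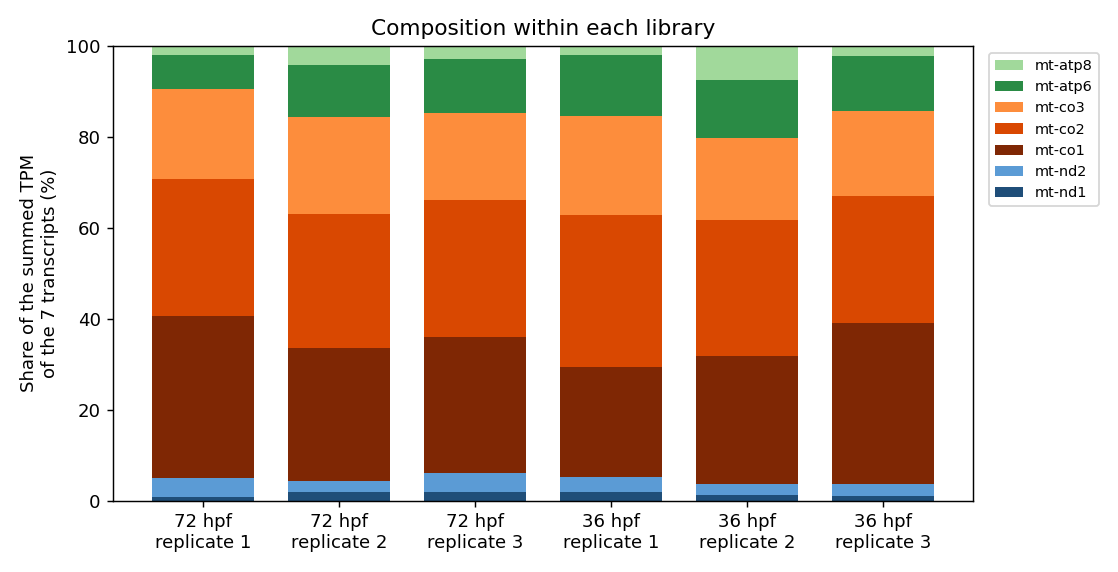
Share of each transcript in the summed TPM of the 7, in percent, for every library (72 hpf left, 36 hpf right). The 3 complex IV transcripts (brown to orange) take 76.1 to 85.7% in each library, and mt-atp8 (light green) reaches 7.55% in replicate 2 at 36 hpf. By counts per base of full length that mt-atp8 share is 1.92%.

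Ratios between members of the same complex differed in how steady they were. The counts of mt-co2 were 1.19, 1.1 and 1.23 times those of mt-co3 at 72 hpf and 1.2, 1.34 and 1.17 times at 36 hpf. Of the 21 pairs this was the steadiest, and its highest ratio was 1.22 times its lowest. The other 20 pairs varied by more than 1.5 times between libraries.

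The ratio of mt-nd1 to mt-nd2, which lie next to each other on the chromosome, was 0.164, 0.729 and 0.431 at 72 hpf, against 0.465, 0.502 and 0.374 at 36 hpf. Over the 6 libraries its highest value was 4.44 times its lowest, the most of any pair. These extremes were replicates 1 and 2 at 72 hpf. By the SD of the log2 ratio, mt-nd2 to mt-atp8 (0.77) and mt-nd1 to mt-co1 (0.74) varied more than mt-nd1 to mt-nd2 (0.72). In replicate 1 at 72 hpf mt-nd1 had 551 counts, or 64.8 CPM with an exact Poisson 95% interval of 59.5 to 70.5, and mt-nd2 had 3356 counts. In replicate 2 at 72 hpf the counts were 1698 for mt-nd1 and 2329 for mt-nd2. Error from counting reads was therefore small beside this difference. The interval takes reads as independent, and variation arising before sequencing was not tested. The stages overlapped, and the 36 hpf libraries lay between the 72 hpf extremes.

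For mt-atp8 over mt-atp6 the TPM ratio was 0.288, 0.355 and 0.252 at 72 hpf, against 0.148, 0.597 and 0.174 at 36 hpf. The log2 difference was 0.25 with an exact permutation p of 0.8, and the 72 hpf values all lay between those of the 36 hpf libraries. By counts per base of full length the ratio was 0.132, 0.118 and 0.113 at 72 hpf, against 0.0706, 0.166 and 0.0834 at 36 hpf. On that scale the log2 difference was 0.28, with an exact permutation p of 0.5. Both frames lie on a shared mRNA in vertebrates, so the ratio compares estimates for parts of it and not separate mRNAs. Why mt-atp8 came out lower than mt-atp6 was not tested. The estimated counts of all 7 transcripts were whole numbers in 6 of 6 libraries within 1e-06. Of all listed transcripts, zeros included, 65.7 to 81.5% had whole counts in a library. The counts thus showed no sign of a read divided between these overlapping genes or with another transcript. Whether any read could have matched both genes was not tested.

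**Figure D5:**
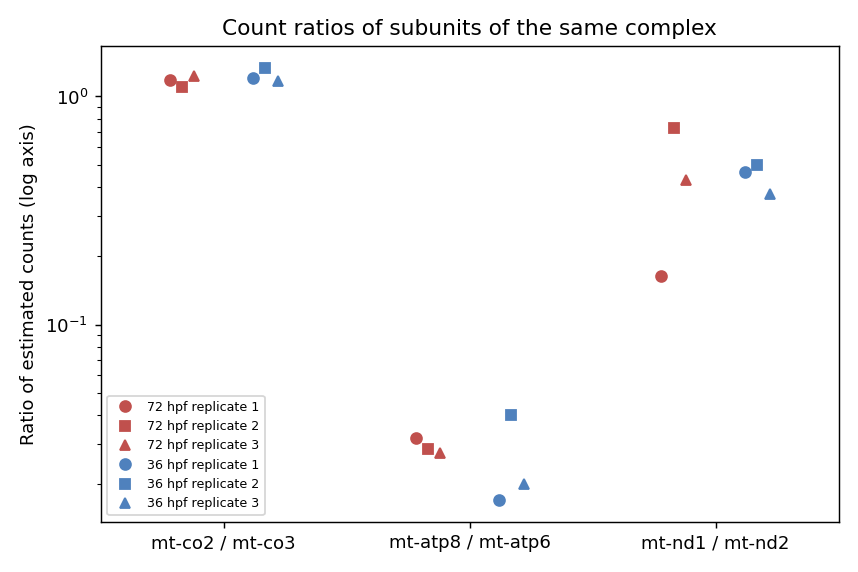
Ratio of estimated counts of 3 pairs from the same complex in every library, on a log axis (red 72 hpf, left; blue 36 hpf, right). The ratio of mt-co2 to mt-co3 stays between 1.1 and 1.34, and that of mt-nd1 to mt-nd2 runs from 0.164 to 0.729.

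Profiles over the 6 libraries were compared by the SD of the difference in log2(CPM + 1), which is small where 2 transcripts keep a constant ratio. Against the mean of the 7, mt-co2 had the smallest SD, 0.11, followed by mt-co3 with 0.14, and mt-nd1 the largest of the 7 with 0.44. Each of the 7 is itself part of that mean, which lowers its SD, while transcripts outside the set have no such advantage. The median over the well-expressed transcripts and the 7 was 1.38. The 2 most similar transcripts outside the set were ENSDART00000133059.2 (2445 bases, SD 0.17) and ENSDART00000025604.7 (1906 bases, SD 0.23), which the tables used here do not pair with a gene. They ranked 3rd and 4th, ahead of mt-atp6 and the 4 members below it, so that the set does not stand as a closed group by this measure. Among the 10 transcripts most like a member, mt-co2 and mt-atp8 each had 3 of the other 6, mt-co1, mt-co3 and mt-atp6 each had 2, mt-nd1 had 1 and mt-nd2 had 0. All these values share the same 6 libraries and their totals and carry no test.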

How the data were processed

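Smart-seq v4 libraries were made from total RNA extracted with a column kit, per the labels' protocols, which mention no molecular identifiers or strand. Per the file headers, the deposited columns are transcript length, effective length, estimated count and TPM. Tools named in the submitters' processing notes are RSEM 1.2.15, Bowtie2 2.1.0, Trimmomatic and FastQC, with danRer10 as the build. The column names match those of kallisto, and the sources used here do not name the program that wrote the deposited counts. Members were checked by length against RefSeq's gene table, which is of another build. Other transcripts of equal length would pass the same check.

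Estimated counts were rounded and fitted over all transcripts with edgeR 4.0.16 in R 4.3.3 (TMM, filterByExpr, stage as the only term). SE is the log2 fold change divided by the square root of F. Adjusted p-values are Benjamini-Hochberg over 17711 transcripts. DESeq2 1.42.0 and limma 3.58.1 were alternatives. With 1 library left out, the filter was applied anew. CPM is the estimated count over the library total. Single values were compared by exact two-sided permutation over samples. Fragment length is the median of length minus effective length plus 1 over transcripts above 5000 bases. The edgeR fit was tested on simulated data. The 7 members are all named, and outside them the 2 transcripts with the most similar profile among those at 100 CPM or more. The members and lists were chosen with earlier results of these data known. Nuclear gene lists were not analysed here, and neither were sequences of the members. Figures were drawn with matplotlib 3.10.9.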

Additional observations from a re-analysis of the deposited data

How the results depend on the processing

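For none of the 7 transcripts did any of the 15 alternatives pass the threshold, with adjusted p from 0.126 to 1.00. Limma-voom turned the direction of mt-co1 (-0.61), mt-co2 (-0.19), mt-atp6 (-0.33) and mt-co3 (-0.061). With the replicate number as a block, mt-atp6 was at -0.042 and the other 6 stayed above 0. Leaving out 1 library gave log2 fold changes of -0.24 to 0.87 for mt-nd1, 0.42 to 0.94 for mt-nd2, 0.33 to 0.92 for mt-co1, -0.013 to 0.69 for mt-co2, -0.45 to 0.97 for mt-atp8, -0.55 to 0.35 for mt-atp6 and 0.05 to 0.83 for mt-co3. The median of all transcripts shifted by 0.15 with relative log expression factors and by 0.10 with plain library sizes, and all 7 members were above 0 under both.

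The number of transcripts called over the whole table was 72 of 17711 tested. It was 174 with no filter, 914 with a stricter filter (at least 1 CPM throughout a stage, and 10 counts on average), 1581 by DESeq2, 1033 by limma-voom, 910 by limma on TPM, 23 with the replicate block and 14 at an adjusted p under 0.01; the cause was not tested. Leaving out 1 library left 19832 to 21405 tested and gave 0 to 89 called. These were 8, 89 and 0 without replicates 1, 2 and 3 at 72 hpf, and 3, 5 and 3 without those at 36 hpf. Libraries with the same replicate number did not deviate together from their stage means (r across transcripts of 0.0027, -0.0040 and 0.028), some correlated best with another number, and no pairing was assumed.

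The difference in summed share of counts was above 0 in every alternative run, at 0.10 to 0.49 percentage points with 1 library left out. These runs reuse the same libraries. The replicate block leaves the difference at 0.27 by construction and changes only its p. That exact p, from flipping the signs of the paired differences, was 0.5. With 1 library left out, the differences in share of the summed TPM were -0.033 to 0.58 for mt-nd1, 0.48 to 1.34 for mt-nd2, -0.15 to 5.51 for mt-co1, -1.84 to 0.92 for mt-co2, -1.77 to 1.02 for mt-atp8, -3.28 to -1.05 for mt-atp6 and -0.11 to 1.70 for mt-co3. The log2 difference in the ratio of the complex IV members to the complex I members was -0.43 to -0.10, and in that of mt-atp8 to mt-atp6 -0.13 to 0.88. Counts were lowest for mt-atp8, at 69 in its lowest library.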
